A study of Homo sapiens with 6 samples.

Results

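SLC7A11, SLC3A2, SLC7A11-AS1, GCLM and CHAC1, 5 of the 3511 genes in the deposited table, cover cystine import, glutathione synthesis and glutathione breakdown. They were followed in RKO cells, an established human colorectal carcinoma line labelled as wild type. The fasting group was 3 libraries of cells kept in medium with 1% fetal bovine serum and 1 g/L glucose, and the control group was 3 libraries from medium with 10% serum and 4.5 g/L glucose. Treatment lasted 48 h per the series' design text, and the labels of these 6 libraries name no drug. The base medium was DMEM. The labels do not say whether the 3 libraries of a group came from separate cultures, so tests measure only the spread between these libraries, which may be technical. The 5 genes were picked by name because of their difference between these media, so their levels and fold changes are given as a description with no test.

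Cystine, the oxidised dimer of cysteine, enters cells through system xc-, a heterodimer that exchanges it for glutamate. SLC7A11 encodes the transporting light chain, and SLC3A2 the heavy chain (4F2hc, CD98) that carries this and several other amino acid transporters to the plasma membrane. Inside the cell cystine is reduced to cysteine, which glutamate-cysteine ligase joins to glutamate in the first step of glutathione synthesis. GCLC is the catalytic and GCLM the modifier subunit of that ligase. CHAC1 encodes a gamma-glutamylcyclotransferase that cleaves glutathione in the cytosol and is known as a target of the stress factor ATF4. Glutathione feeds the peroxidase GPX4, and loss of cystine import or glutathione is a known route to ferroptosis, an iron-dependent cell death by lipid peroxidation.

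The promoter windows of the protein-coding members are shown because 2 regulators of this pathway are known to act through short elements: NRF2 through the antioxidant response element, and ATF4 through the C/EBP-ATF response element. The sequences are the 250 bases before a start site in RefSeq (GRCh38.p14), and 3 of the 5 members matched the table. Capitals mark matches to TGACNNNGC (antioxidant response element core), TGATGNAA (C/EBP-ATF response element core) or TGANTCA (AP-1 element), searched on both strands.
SLC3A2 (chr11:62881449-62881698, plus strand): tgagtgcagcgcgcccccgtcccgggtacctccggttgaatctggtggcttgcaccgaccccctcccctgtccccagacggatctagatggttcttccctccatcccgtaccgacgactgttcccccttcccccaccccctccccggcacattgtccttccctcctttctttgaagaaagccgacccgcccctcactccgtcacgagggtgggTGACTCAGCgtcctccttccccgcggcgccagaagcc
GCLM (chr1:93909431-93909680, minus strand): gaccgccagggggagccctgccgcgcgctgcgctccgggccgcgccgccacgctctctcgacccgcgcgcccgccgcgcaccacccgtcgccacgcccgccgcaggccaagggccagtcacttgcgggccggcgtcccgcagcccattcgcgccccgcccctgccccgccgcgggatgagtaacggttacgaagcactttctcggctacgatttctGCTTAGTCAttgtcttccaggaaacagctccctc
CHAC1 (chr15:40953221-40953470, plus strand): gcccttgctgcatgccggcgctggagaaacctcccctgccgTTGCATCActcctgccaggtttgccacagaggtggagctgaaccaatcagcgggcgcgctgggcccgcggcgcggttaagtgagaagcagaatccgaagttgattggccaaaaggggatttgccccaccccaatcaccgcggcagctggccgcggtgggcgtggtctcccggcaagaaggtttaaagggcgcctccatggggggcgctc
The SLC3A2 window held TGACTCAGC at 37 to 29 bases before the start, which contains both an antioxidant core and an AP-1 element. Its other 2 start sites, further upstream, held no match in these windows, and the start used in RKO cells is not known from gene-level values. GCLM held an antioxidant core on the opposite strand, at 34 to 26 bases before the start. CHAC1 held a C/EBP-ATF core on the opposite strand, at 209 to 202 bases before the start. Of 35116 promoter windows of this length, 10.9% held the antioxidant core, 3.14% the C/EBP-ATF core and 6.57% the AP-1 element. A match describes letters, not a bound site.

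All values below are normalized read counts, that is, reads divided by a size factor for each library as the authors left them. Reads in the listed genes numbered 4187326, 5071791 and 4389842 in fasting replicates 1 to 3, and 4017618, 5602177 and 5513396 in control replicates 1 to 3. Total depth is unknown, since the table holds only the genes with an adjusted p of at most 0.04999 in the authors' deposited table, 11.8% of the 29845 genes tested. Fasting replicate 3 stood apart. Its counts differed from those of the other fasting libraries by a mean chi-square of 58.5 and 57.9 per gene (sampling noise alone gives 1), compared with 1.90 between fasting replicates 1 and 2 and 2.17 to 6.70 between control libraries. Of 14 colorectal epithelial markers only KRT18 was listed, at 2460 ± 816 normalized counts in fasting and 723 ± 58 in control libraries (SD, n = 3 each), so the table cannot check the label. Of 14 markers of other cell types only CD14 was listed, at 7.62 to 8.37 normalized counts in fasting libraries and 0.71 to 0.99 in control libraries, and its part in the results was not tested.

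Both chains of the cystine importer were higher in every fasting library than in any control library, and the light chain differed far more. Of all listed genes, chosen by the authors for their difference, 50.2% lay higher in every fasting library than in any control library and 49.8% lower, so this count carries no weight by itself. SLC7A11 (ENSG00000151012, chromosome 4) had 3829, 4045 and 2423 normalized counts in fasting replicates 1 to 3, against 77.9, 74.6 and 87.2 in control replicates 1 to 3. The groups did not overlap, and the lowest fasting library was 27.8 times the highest control library. Its mean log2 fold change was 5.37, or 41.5-fold, with single fasting libraries between 30.0-fold and 50.1-fold above the control mean. The control values rest on 79, 105 and 120 reads, and their exact 95% Poisson intervals, which cover counting error only, ran from 61.0 to 104 normalized counts. SLC3A2 (ENSG00000168003, chromosome 11) had 15307, 15907 and 23625 normalized counts in fasting replicates 1 to 3, against 1792, 1828 and 1893 in control replicates 1 to 3. Its log2 fold change was 3.29, or 9.75-fold. Fasting replicate 3 was the highest library for SLC3A2 and the lowest fasting library for SLC7A11. In bulk RNA, a change in the share of cells that express a gene and a change in RNA per cell cannot be told apart.

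**Figure D1:**
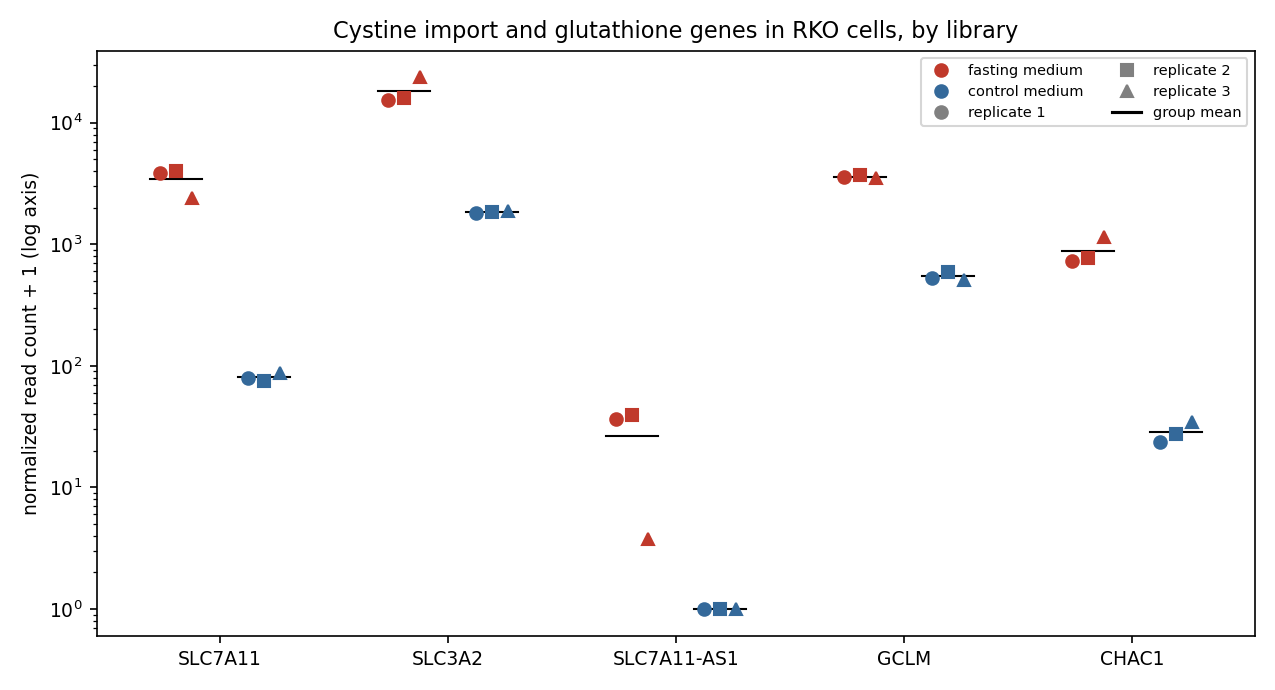
Normalized read count plus 1, on a log axis, of the 5 genes in each fasting (left) and control (right) library, with a black line at the group mean. Every fasting library lies above every control library for each gene, and for SLC7A11-AS1 fasting replicate 3 (triangle) lies at 2.75 normalized counts, near the control libraries at 0.

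GCLM (ENSG00000023909, chromosome 1) was the member with the least spread in fasting medium. It had 3604, 3686 and 3534 normalized counts in fasting replicates 1 to 3, against 525, 593 and 511 in control replicates 1 to 3. The fasting coefficient of variation was 2.11%, compared with 25.7% for SLC7A11 and 25.4% for SLC3A2. The groups did not overlap, and the log2 fold change was 2.73, or 6.65-fold. The partner subunit GCLC, the next enzyme of synthesis GSS and the glutathione reductase GSR were not listed, so the modifier subunit alone represents synthesis here.

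CHAC1 (ENSG00000128965, chromosome 15), the breakdown enzyme, had few reads in control medium. It had 724, 774 and 1139 normalized counts in fasting replicates 1 to 3, against 22.7, 26.3 and 33.4 in control replicates 1 to 3. The control libraries held 23, 37 and 46 CHAC1 reads, with exact 95% Poisson intervals that overlap, from 14.4 to 44.6 normalized counts in all. The groups did not overlap, and the log2 fold change was 4.94, or 30.6-fold, so the breakdown gene differed more than either SLC3A2 or GCLM. Its mean log2 fold change lay below that of SLC7A11, but single fasting libraries overlapped. They lay 30.0-fold to 50.1-fold above the control mean for SLC7A11 and 25.8-fold to 40.5-fold for CHAC1. None of the other 13 genes of glutathione breakdown was listed, among them CHAC2, the paralog of CHAC1, and the gamma-glutamyl transpeptidase GGT1.

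All 5 members passed the minimum mean of 1 normalized count in a group, SLC7A11-AS1 only through fasting medium. In the authors' deposited table the 4 protein-coding members had log2 fold changes of 5.42 for SLC7A11, 5.00 for CHAC1, 3.31 for SLC3A2 and 2.73 for GCLM. All 5 members were called there as higher in fasting medium, as were 5.91% of the 29845 genes tested. Since the members were chosen for that contrast, nothing is read from this count. Ranks were taken, as a description, by the log2 fold change of normalized count + 1 and not by the authors' values. From the highest down, SLC7A11 stood at rank 6, CHAC1 at 10, SLC3A2 at 63 and GCLM at 110 of 3511 listed genes.

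Levels of different genes were compared per kilobase of the longest protein-coding transcript in GENCODE release 29, which assumes that this transcript is the one expressed. In fasting medium the order was SLC3A2 with 8227 ± 2088 normalized counts per kb, GCLM with 743 ± 16, CHAC1 with 475 ± 122 and SLC7A11 with 356 ± 91 (SD, n = 3 each). CHAC1 and SLC7A11 did not differ beyond their spread in that group. In fasting replicates 1 and 2 CHAC1 stood at 391 and 419 per kb and SLC7A11 at 397 and 419 per kb, while replicate 3 had 616 for CHAC1 and 251 for SLC7A11. In control medium the order was SLC3A2 with 827 ± 23, GCLM with 112 ± 9, CHAC1 with 14.9 ± 3.0 and SLC7A11 with 8.28 ± 0.68 normalized counts per kb, and CHAC1 lay above SLC7A11 in each control library. Heavy chain RNA exceeded light chain RNA everywhere, by 17.4, 17.1 and 42.3 times per kb in fasting replicates 1 to 3 and by 99.8, 106 and 94.2 times in control replicates 1 to 3. SLC3A2 also serves SLC7A5, the large neutral amino acid transporter LAT1, which had 2153 ± 26 normalized counts per kb in fasting and 584 ± 48 in control libraries. Of the light chain RNA of these 2 transporters per kb, SLC7A11 made up 14.1% ± 3.1 in fasting and 1.40% ± 0.06 in control libraries (SD, n = 3 each).

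Ratios between members of the same library barely depend on the size factors, which enter only through the pseudocount, and they show how supply and breakdown stood to each other. The log2 ratio of SLC7A11 over SLC3A2, on normalized count + 1 as for all ratios here, was -2.00, -1.98 and -3.28 in fasting replicates 1 to 3, against -4.51, -4.60 and -4.42 in control replicates 1 to 3. The light chain thus stood higher relative to its partner in each fasting library, by a mean of 2.09 log2 units. The log2 ratio of GCLM over SLC7A11 was -0.09, -0.13 and 0.54 in fasting replicates 1 to 3, against 2.74, 2.97 and 2.54 in control replicates 1 to 3. The mean difference of -2.64 puts GCLM lower relative to the importer's light chain in each fasting library.

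The breakdown gene also stood higher relative to the synthesis gene in each fasting library. The log2 ratio of CHAC1 over GCLM was -2.31, -2.25 and -1.63 in fasting replicates 1 to 3, against -4.47, -4.44 and -3.89 in control replicates 1 to 3, a difference of 2.20. CHAC1 over SLC3A2, a ratio chosen after its values were seen, was -4.40, -4.36 and -4.37 in fasting replicates 1 to 3 and -6.24, -6.07 and -5.78 in control replicates 1 to 3. The fasting libraries differed by an SD of 0.02 in that ratio, although both genes were higher in replicate 3. Against the importer's light chain, breakdown showed no such order. CHAC1 over SLC7A11 was -2.40, -2.38 and -1.09 in fasting replicates 1 to 3, against -1.74, -1.47 and -1.36 in control replicates 1 to 3, and the groups overlapped. The mean difference was -0.44, and it was -0.87 without fasting replicate 3, where both remaining fasting libraries lay below all controls.

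**Figure D2:**
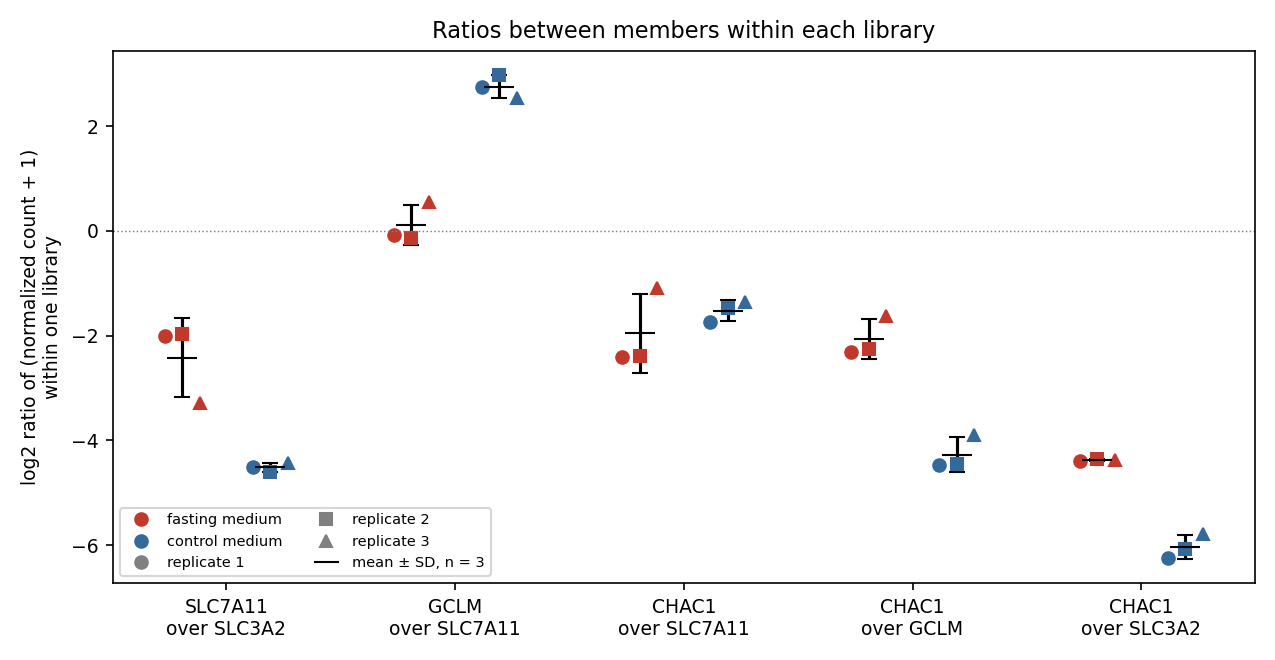
Log2 ratios of normalized count + 1 between pairs of members within each fasting (left) and control (right) library, with mean ± SD (n = 3 libraries per group). CHAC1 over GCLM and over SLC3A2 is higher in every fasting library, while CHAC1 over SLC7A11 overlaps between groups, with fasting replicate 3 at -1.09.

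The spread among fasting libraries moved with transcript length. Across 2886 listed genes with at least 100 normalized counts in a group, the log2 difference of fasting replicate 3 from the mean of replicates 1 and 2 had a Spearman correlation of -0.722 with transcript length, a description across genes of the same libraries. SLC7A11, with a transcript of 9645 bases, differed by -0.70, and the median of 197 listed genes of like length (0.8 to 1.25 times) was -0.63. CHAC1 (1849 bases) differed by 0.60 and SLC3A2 (2222 bases) by 0.60, against medians of 0.37 over 452 and 0.29 over 661 genes of like length. GCLM (4857 bases) differed by -0.04, against a median of -0.20 over 748 genes. SLC3A2 lay above the 10th to 90th percentile range of its genes of like length, -0.07 to 0.57. CHAC1 lay near the top of its range, -0.01 to 0.62, and SLC7A11 and GCLM lay inside theirs. With the trend with length removed from each library, the log2 fold change was 5.96 for SLC7A11, 4.62 for CHAC1, 2.97 for SLC3A2 and 2.88 for GCLM. The fasting SD on the log2 scale was then 0.08 instead of 0.41 for SLC7A11, 0.14 instead of 0.35 for CHAC1 and 0.18 instead of 0.35 for SLC3A2, while for GCLM it was 0.09 instead of 0.03. The log2 ratio of CHAC1 over SLC7A11 became -2.52, -2.54 and -2.18 in fasting replicates 1 to 3 and -1.30, -1.02 and -0.91 in control replicates 1 to 3, and no longer overlapped. This correction also takes out any real difference between the media that follows length.

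**Figure D3:**
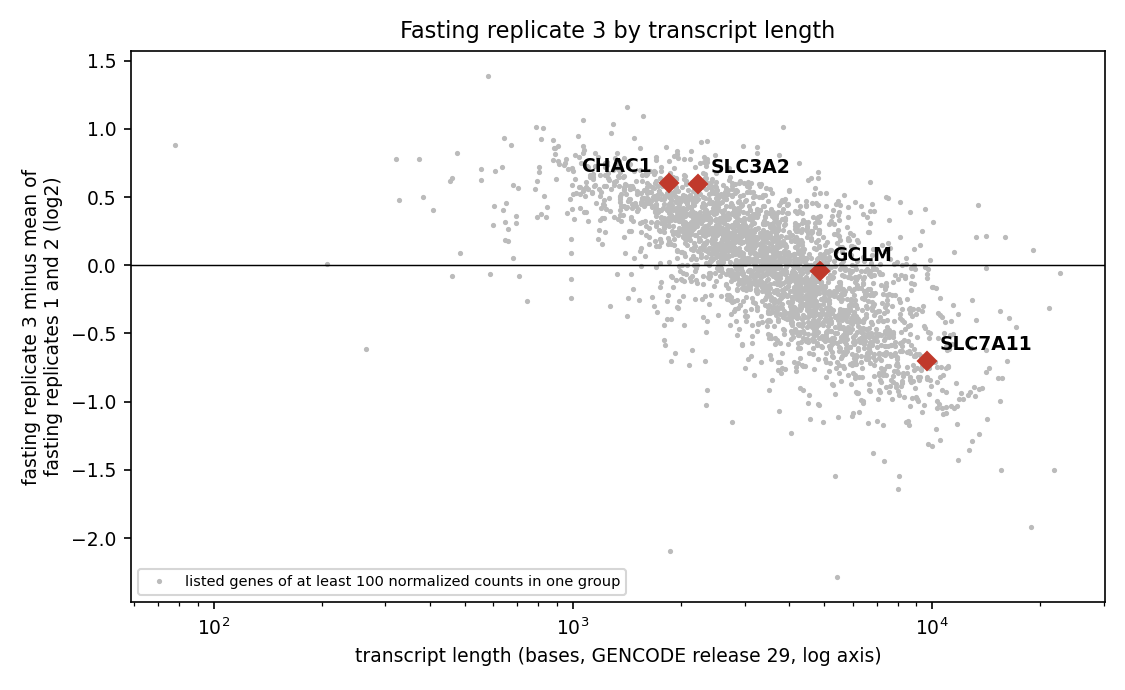
Log2 difference of fasting replicate 3 from the mean of fasting replicates 1 and 2 against transcript length (log axis), for 2886 listed genes (grey) and the 4 protein-coding members (red diamonds). SLC7A11, at 9645 bases, lies at -0.70 and CHAC1, at 1849 bases, at 0.60, within the downward trend of the other genes.

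SLC7A11-AS1 (ENSG00000250033, chromosome 4) is an antisense RNA whose gene body overlaps that of SLC7A11 by 14081 bases on the opposite strand in GENCODE release 29, with 865 exonic bases shared. The table gives it no symbol, and it was matched by its identifier. It had 35.5, 38.7 and 2.75 normalized counts in fasting replicates 1 to 3, from 28, 37 and 2 reads, and no read in any of the control replicates. Replicates 1 and 2 thus carry the fasting signal, and replicate 3 lies close to the controls. Taking a floor of 3 reads over the 3 control libraries together, the fasting mean was at least 32.5-fold higher, and at least 47.0-fold higher without replicate 3. Relative to SLC7A11, there were 0.93, 0.96 and 0.11 antisense reads per 100 sense reads in fasting replicates 1 to 3. The exact (Clopper-Pearson) 95% intervals were 0.62 to 1.34, 0.67 to 1.32 and 0.01 to 0.41, so replicate 3 lay below the others beyond counting error. Fasting replicate 3 differed from the mean of replicates 1 and 2 by -3.34 log2 units. The median was -0.18 over 777 genes with transcripts near its longest, of 4654 bases. Those genes had at least 100 normalized counts in a group, so their differences carry far less counting error than one resting on 2 reads. In controls there were 0 antisense reads to 304 SLC7A11 reads in all, which allows up to 0.987 per 100 by the floor of 3 reads and up to 1.21 by the exact interval. At the share of fasting replicates 1 and 2, 0.944 per 100, those 304 reads would come with 2.87 antisense reads, so a lower antisense share in controls was not detectable at this depth. The library kit marks strand, but whether the counting used it is not given in the sources used here, and reads in the shared exons may be assigned to either gene.

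The other genes of glutathione and cysteine metabolism were taken from 12 lists and tested with limma on log2(normalized count + 1), with Benjamini-Hochberg adjustment over all 29845 genes. Of 152 genes other than the members, 50 were listed, and 41 rose, 7 fell and 2 did not pass. Their median log2 fold change was 1.13, compared with 0.53 over all 3511 listed genes. Among all listed genes 1745 rose, 49.7% of those listed and 5.85% of all tested, and 1567 fell, 44.6% of those listed and 5.25% of all tested. Scaling each library to its summed reads in the table instead gave 862 rises and 1708 falls. That scaling shifts log2 fold changes by -0.48, less in genes with low counts, and 32 of the pathway genes rose and 8 fell under it. The rises below are relative to the authors' size factors.

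In import, the remaining light chain listed of 5 that pair with SLC3A2 was SLC7A5, which had 9767 ± 116 normalized counts in fasting and 2650 ± 217 in control libraries (SD, n = 3 each; log2 fold change 1.88, SE 0.09, limma adjusted p = 2.08e-05). Of 7 other cystine and cysteine carriers 4 were listed, with 3 rising and 1 falling. SLC1A5, a neutral amino acid exchanger known for glutamine uptake, rose by 1.16 log2 units (limma adjusted p = 3.59e-04) and SLC1A4, a related exchanger, by 1.02 (limma adjusted p = 3.94e-04). CTNS, which exports cystine from lysosomes, rose too (0.82), but by 0.35 and not past the threshold with scaling to summed reads. SLC1A1, a glutamate transporter that also takes up cysteine, fell by 0.89 (limma adjusted p = 0.0246), a call lost without any single control library (adjusted p = 0.0840 to 0.112) and with median-of-ratios scaling (-0.69).

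Of 19 genes of the methionine cycle, transsulfuration and cysteine use 4 were listed, and 3 rose, CTH and GOT1 the most. CTH, which releases cysteine from cystathionine, had 927, 932 and 974 normalized counts in fasting replicates 1 to 3, against 115, 79.6 and 82.1 in control replicates 1 to 3 (log2 fold change 3.36, SE 0.15, limma adjusted p = 2.08e-05). CBS, the preceding enzyme, was not listed. GOT1, a cytosolic aspartate aminotransferase, rose by 2.04 (limma adjusted p = 3.90e-05), and AHCY, which hydrolyses S-adenosylhomocysteine, by 0.89. MTR, methionine synthase, with a transcript of 10529 bases, had a log2 fold change of -0.97 that did not pass (limma adjusted p = 0.142), and fasting replicates 1 to 3 held 885, 845 and 355 normalized counts. Without fasting replicate 3 it passed as lower (-0.54, limma adjusted p = 6.93e-06).

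Genes that supply the other precursors, glutamate and glycine, were listed more fully, with 10 of 13, of which 9 rose and 1 fell. PSAT1, of the serine pathway that leads to glycine, had 5012 ± 469 normalized counts in fasting and 1574 ± 12 in control libraries (log2 fold change 1.67, limma adjusted p = 3.62e-05). SLC6A9, a glycine importer, had 190 ± 23 in fasting and 24.1 ± 4.4 in control libraries (log2 fold change 2.93, limma adjusted p = 5.90e-05). The cytosolic serine hydroxymethyltransferase SHMT1 fell by 0.68 (limma adjusted p = 3.07e-03), while its mitochondrial counterpart SHMT2 rose by 0.97 log2 units.

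Among users of glutathione the direction was mixed. Of 8 glutathione peroxidases 3 were listed. GPX8, of the endoplasmic reticulum, rose by 0.68 (limma adjusted p = 5.03e-03), but by 0.21 and not past the threshold with scaling to summed reads. The secreted GPX3 fell by 1.11 (limma adjusted p = 9.45e-03), a call lost without control replicate 3 (adjusted p = 0.0563). GPX1 had 1729, 1803 and 3131 normalized counts in fasting replicates 1 to 3, against 3415, 3569 and 3659 in control replicates 1 to 3, and did not pass (log2 fold change -0.73, limma adjusted p = 0.0795). It passed as lower without fasting replicate 3 (-1.01), with the length trend removed (-1.13) and with scaling to summed reads (-1.21). GPX4 was not listed. Of 24 transferases and glutaredoxins 5 were listed, with 3 rising and 2 falling. The rising ones were MGST1, a membrane-bound transferase (1.28, limma adjusted p = 2.01e-03), GLRX, the cytosolic glutaredoxin (1.18, limma adjusted p = 7.36e-04), and GSTO1, an omega-class transferase (1.13, limma adjusted p = 5.94e-03). GSTM4, a mu-class transferase, fell by 0.68 (limma adjusted p = 0.0385). Its call was lost without any single library (adjusted p = 0.0910 to 0.183) but fasting replicate 3, with DESeq2 (-0.47), with median-of-ratios scaling (-0.48) and with the length trend removed (-0.58). GLRX5, which acts in mitochondrial iron-sulfur assembly, fell by 0.77 (limma adjusted p = 0.0239), and its call was lost in 5 of the 6 fits that drop a library (adjusted p = 0.0802 to 0.111), the exception being fasting replicate 3, and with median-of-ratios scaling (adjusted p = 0.0830). Without the mean-variance trend, limma called neither GLRX5 nor GSTM4 (adjusted p = 0.0521 and 0.0651). Of 7 transporters of glutathione and its conjugates 2 were listed. The conjugate exporter ABCC2 rose to 42.6 ± 6.0 normalized counts in fasting, against 5.21 ± 2.84 in control libraries (log2 fold change 2.93, limma adjusted p = 1.85e-03). SLC25A40, related to the mitochondrial glutathione importer, fell by 0.65 (limma adjusted p = 0.0148), a call lost without any single control library (adjusted p = 0.0514 to 0.0866), with DESeq2 (-0.44, adjusted p = 0.0930) and with median-of-ratios scaling (-0.45, adjusted p = 0.136).

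Both listed genes of 12 in the thioredoxin system rose. TXNRD1, thioredoxin reductase, had 25688 ± 2547 normalized counts in fasting and 5756 ± 53 in control libraries (log2 fold change 2.15, limma adjusted p = 2.08e-05), and PRDX1, a peroxiredoxin, rose by 0.79 (limma adjusted p = 0.0126). The call of PRDX1 was lost without control replicate 1 or 3 (adjusted p = 0.0641 and 0.0680) and with scaling to summed reads (0.31). Of 19 genes of pathways that supply NADPH, the reductant for glutathione reductase, 5 were listed, with 4 rising and 1 falling. The mitochondrial folate enzyme MTHFD2 rose by 1.72 (limma adjusted p = 1.84e-05) and the pentose phosphate enzyme TKT by 0.90 (limma adjusted p = 1.44e-03). The cytosolic folate enzyme MTHFD1, with a transcript of 6814 bases, fell by 0.57 (limma adjusted p = 7.73e-03), but by 0.14 and not past the threshold with the length trend removed. Its call was also lost without control replicate 1 (adjusted p = 0.0502) and with median-of-ratios scaling (-0.38, adjusted p = 0.0943).

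**Figure D4:**
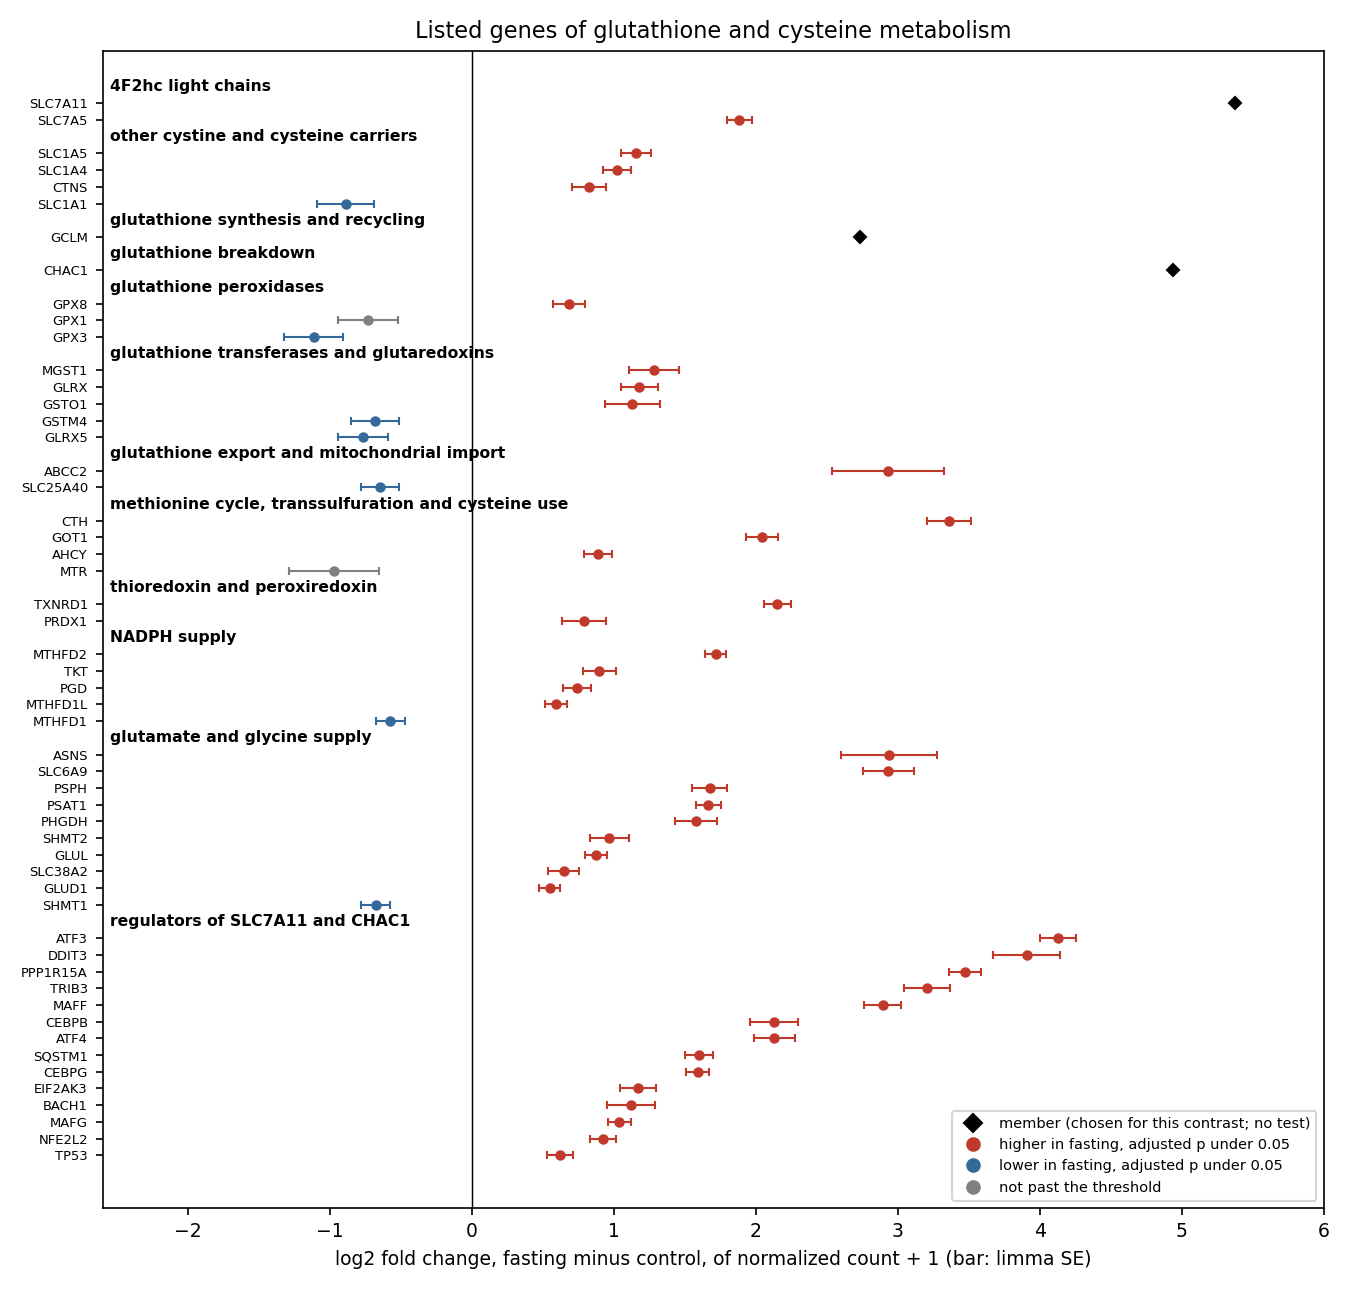
Log2 fold change (fasting minus control, normalized count + 1) of the listed genes of the 12 lists, with limma standard errors for genes that are not members. SLC7A11 and CHAC1 lie at 5.37 and 4.94, above the tested genes plotted, of which ATF3 at 4.13 is the highest.

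All 14 listed genes among 22 known regulators of SLC7A11 and CHAC1 rose, and their median log2 fold change was 1.87. ATF3 had 821, 686 and 798 normalized counts in fasting replicates 1 to 3, against 43.4, 46.2 and 39.2 in control replicates 1 to 3 (log2 fold change 4.13, limma adjusted p = 3.79e-06). PPP1R15A, the stress-induced phosphatase subunit GADD34, rose by 3.47 (limma adjusted p = 5.07e-06), DDIT3, the stress factor CHOP, by 3.91 (limma adjusted p = 5.60e-05) and ATF4 by 2.13 (limma adjusted p = 9.38e-05). On the NRF2 side, NFE2L2, which encodes NRF2, rose by 0.93 (limma adjusted p = 5.33e-04), and so did BACH1, a repressor at the same element (1.12, limma adjusted p = 3.25e-03). The call of BACH1 was lost with scaling to summed reads (0.64). KEAP1, the NRF2 inhibitor, was not listed.

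For each protein-coding member, the 3 listed genes with the most similar pattern were taken from 2717 genes with a symbol and at least 100 normalized counts in fasting medium. The measure was the root mean square difference over the 6 libraries between log2 values set to their own control mean. It also takes in the shift of fasting replicate 3 that followed transcript length, and shared regulation was not tested. Nearest to SLC3A2 was TRIB3, a pseudokinase gene induced by ATF4, at 0.057 log2 units. TRIB3 had 6708, 6946 and 10415 normalized counts in fasting replicates 1 to 3, against 830, 853 and 871 in control replicates 1 to 3. HERPUD1, a gene of the endoplasmic reticulum stress response (0.111), and the polyamine acetyltransferase gene SAT1 (0.117) came next. Nearest to GCLM were the co-chaperone gene BAG3 (0.077), the splicing kinase gene CLK1 (0.095) and the phosphatase gene DUSP1 (0.150). SLC7A11 had less close matches, in the cyclooxygenase gene PTGS2 (0.308), the heme oxygenase gene HMOX1 (0.422) and RPLP0P2 (0.465). RPLP0P2 is a ribosomal protein pseudogene whose reads may be shared with its parent gene. Among fasting libraries PTGS2 was lowest in replicate 3, as SLC7A11 was (397, 416 and 305 normalized counts in replicates 1 to 3). HMOX1 (19889, 20223 and 28849) and RPLP0P2 (149, 149 and 180) were highest there, so they resemble SLC7A11 in the difference between media only. CHAC1 lay nearest to the immediate early gene FOS (0.251), ZFAND2A (0.371) and the matrix metalloproteinase gene MMP1 (0.378).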

How the data were processed

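RNA from 6 RKO libraries (3 fasting, 3 control) was sequenced, with strand-marking libraries per the labels' protocols. Per the submitters' processing notes, DESeq 1.10.1, HTSeq 0.6.1 and UMI-tools 1.0.0 were used, without the step of each being stated. For aligner, genome build or gene models nothing is given in the sources used here. The deposited values are a signal that the authors made by dividing the reads of a gene by a size factor, as read from the values, since 100% were whole multiples of 1 read within 0.01 read. The authors' deposited log2 fold changes, p-values and adjusted p-values stand beside them.

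Groups follow the treatment labels, although a protocol text shared by both groups gives only the low-serum medium. limma 3.58.1 (trend, empirical Bayes, two-sided) was fitted to log2(normalized count + 1) over the whole table, where a group mean reached 1. The limma p-values were adjusted by Benjamini-Hochberg over 29845 genes, with a value of 1 for those outside the table, at a threshold of 0.05. The variance comes from listed genes only, a set selected on the outcome. Fold changes on this scale understate the change of low genes. The test was checked only on simulated counts with few changed genes and no outlying library, so that check does not cover this table.

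The members and lists were chosen with earlier results of these data known. Named genes are the members, the 2 smallest adjusted p in each list with the first call in the opposite direction, 16 fixed genes and the 3 most similar genes of each coding member. CTNS, GSTO1, GSTM4, AHCY, SHMT2, MTR, GPX1, KRT18 and CD14 were named after their values were seen. List genes were matched by Ensembl identifier, and 1 (GSTT1) had none. Alternatives were other pseudocounts, filters and scalings, edgeR 4.0.16 and DESeq2 1.42.0 on the recovered reads, each library left out, a replicate block and the length trend removed (GENCODE release 29).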

Additional observations from a re-analysis of the deposited data

How the results depend on the processing

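All 5 members stayed higher in fasting medium in every alternative run. They were chosen for that difference, so their direction carries no weight by itself, and only the sizes below are informative. Without any 1 library the log2 fold change ran from 5.24 to 5.61 for SLC7A11, 3.09 to 3.40 for SLC3A2, 2.69 to 2.80 for GCLM, 4.74 to 5.08 for CHAC1 and 3.55 to 5.25 for SLC7A11-AS1. Scaling to summed reads of the table gave 4.90, 2.81, 2.26 and 4.47 for SLC7A11, SLC3A2, GCLM and CHAC1, and removing the length trend gave 5.96, 2.97, 2.88 and 4.62. GCLM was 2.93 with median-of-ratios scaling and 2.93 with DESeq2, and CHAC1 was 4.55 with a pseudocount of 10. SLC7A11-AS1, with no control read, is set by the pseudocount, at 4.14 with 1, 1.61 with 10, 7.66 with DESeq2 and 7.80 and 7.81 with edgeR under TMM and under the authors' size factors. The last of these was chosen after seeing the data.

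The difference in log2 ratio ran, without any 1 library, from 1.87 to 2.52 for SLC7A11 over SLC3A2, 1.99 to 2.39 for CHAC1 over GCLM, -2.86 to -2.52 for GCLM over SLC7A11, 1.55 to 1.78 for CHAC1 over SLC3A2, -0.87 to -0.22 for CHAC1 over SLC7A11 and -1.69 to -0.36 for SLC7A11-AS1 over SLC7A11. With the length trend removed it was 2.98 for SLC7A11 over SLC3A2, 1.74 for CHAC1 over GCLM, -1.34 for CHAC1 over SLC7A11 and -3.07 for GCLM over SLC7A11. With a pseudocount of 10 it was 1.84 for CHAC1 over GCLM, 1.27 for CHAC1 over SLC3A2 and -3.62 for SLC7A11-AS1 over SLC7A11. The last of these was -1.24 with a pseudocount of 1 and -0.33 with 0.5. The controls held no antisense read, so the pseudocount sets that difference, and no change in antisense share is read from it.

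Scaling to summed reads left 862 listed genes higher, not 1745, and median-of-ratios scaling left 2 pathway genes lower, not 7. Without any 1 library, 1464 to 1762 listed genes rose and 1160 to 1747 fell, and 40 to 41 pathway genes rose and 2 to 9 fell. Fallers numbered 2, 3 and 2 without control replicates 1, 2 and 3. Of 46 named genes that are not members 34 kept their side of the threshold in 18 alternatives, 12 did not, and 0 changed direction. The labels do not say whether the replicate numbers pair the libraries. Correlations of same-numbered deviations were 0.03, 0.03 and 0.08, and fasting replicate 2 was closest to control replicate 1. These values do not settle whether same-numbered libraries share a batch. With the replicate numbers as a block, 1715 listed genes rose and 1578 fell. In that fit 41 pathway genes rose and 8 fell, GPX1 among the fallers (limma adjusted p = 0.0433). Low depth limits SLC7A11-AS1 and the control values of CHAC1.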
